A study of Homo sapiens with 4 samples.

Results

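The genes described here serve protein folding and protein degradation in the endoplasmic reticulum (ER). In all, 41 genes were chosen by name from knowledge of the pathway, with earlier results of these data known. Of these, 19 act in folding, 18 in degradation and 4 in the ER stress response. The last group is called the sensors here, though it includes XBP1, a transcription factor that acts downstream of a sensor. Of the 41, 40 had a probe set that carries their symbol alone, and all 40 passed the filter on low intensity. They are among 13813 genes that passed, out of 18417 genes with such a probe set. PDIA3, a protein disulfide isomerase, has no value here because both of its probe sets are also annotated to the pseudogene PDIA3P1. Where a gene had several probe sets the brightest was used, which concerned P4HB alone.

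Expression was measured in bulk RNA on 4 whole-transcript arrays of DAOY, an established human medulloblastoma line, so fewer expressing cells and less RNA per cell cannot be told apart. Each of 3 arrays held RNA from cells carrying a different lentiviral short hairpin RNA (shRNA) against ZFX, named H2, H3 and H4 (genotype ZFX KD), and 1 array held RNA from cells with the scrambled, non-targeting hairpin SCR (genotype Ctrl). All 4 samples went through the same course of 16 to 24 hours with virus, 48 hours of recovery and about 48 hours in 2 ug/mL puromycin, so the scrambled cells carry virus and selection as well. Separate cultures are not named in the labels, so the spread between these arrays may be partly technical, and the 3 comparisons share the same scrambled array. ZFX, a zinc finger transcription factor, read 744.9 (H2), 749.6 (H3) and 995.6 (H4) in intensity, and 1430 with the scrambled hairpin. Its log2 differences (hairpin minus scrambled) were thus -0.94, -0.93 and -0.52, so the H4 cells kept more of the message than the others. Of 9 granule lineage and medulloblastoma markers, 8 had a value and all 8 passed the filter. The brightest was ZIC2 at 1110 to 1326, and ATOH1 at 107.1 to 126.2 and MYCN at 136.3 to 145.2 were close to the filter. The median log2 level of these markers, 8.25, was below the 50th percentile of all genes, 8.44. Of 4 neural stem and progenitor markers 3 passed, VIM at 13031 to 13937 and also SOX2 and SOX9, and NES lay under the filter at 108.0 to 113.2. Of the haematopoietic, epithelial and endothelial markers with a value, 7 of 8 lay under it, and CD14 stood just above at 130.6 to 136.2.

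Proteins that enter the secretory pathway fold in the lumen of the ER with the help of chaperones and of enzymes that form disulfide bonds. Those that fail are recognised by their trimmed sugars, passed back through the membrane, tagged with ubiquitin and pulled out by the ATPase VCP for the proteasome, a route called ER-associated degradation. When misfolded protein builds up, the sensors ATF6, IRE1 (the gene ERN1) and PERK (EIF2AK3) start the unfolded protein response, in which ATF6 and XBP1 raise the transcription of chaperone and degradation genes. Cells that secrete much protein depend on it.

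Promoter elements known from that response were searched for in these genes. The RefSeq promoter table (build GRCh38.p14) holds windows of 250 bases before and 50 after a gene's start for 37 of the 41 genes. The ER stress element (ERSE), read here as CCAAT, 9 bases of any kind and CCACG on either strand, was found in 8 of these 37 genes (21.6%): HSPA5, HSP90B1, CALR, CANX, PDIA6, ERO1B, CRELD2 and XBP1. Over all 27305 genes in the table it was found in 25 (0.0916%). The second form, ERSE-II (ATTGG, 1 base, CCACG), was found in HYOU1, HERPUD1 and SDF2L1, or 8.1% against 0.0696% of all genes. TGACGTGG, an unfolded protein response element (UPRE) that holds CCACG on its other strand, was found in HYOU1, UBE2J1, VCP and DNAJC10 (10.8% against 0.927%). The genes and these 3 elements were both picked from knowledge of the same response. High shares were therefore built in, and they are no result of these arrays. An element of the type bound by ATF4, TGATGNAA, was found in HERPUD1 alone (2.7% against 4.46%). The ZFX motif core AGGCCT, a palindrome, was found in 8 genes (21.6% against 13%): CANX, DNAJB9, DNAJC3, ERN1, ERO1B, P4HB, UBE2G2 and UBXN4. The 27305 genes behind these background shares were not matched to the 37 in expression or base composition. Whether the shares differ beyond that was not tested. A gene with several start sites had more than 1 window, as CANX did, and a match is a run of letters, not a measured binding site.

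The 250 bases before the start are shown for 5 genes, chosen because their values, given below, span the range: HSPA5, level with the scrambled array on average, HYOU1, UBE2J1 and UBXN4, lower with every hairpin, and HERPUD1, higher with every hairpin. Capitals mark the matches. HSPA5 (chr9:125241344-125241593, minus strand) has the ERSE. HYOU1 (chr11:119057206-119057455, minus strand) has a pair of ERSE-II matches on the opposite strand, the first overlapping a UPRE. HERPUD1 (chr16:56931892-56932141, plus strand) has the ATF4-type element and then ERSE-II. UBE2J1 (chr6:89352723-89352972, minus strand) has a UPRE on the opposite strand, and UBXN4 (chr2:135741605-135741854, plus strand) has the ZFX core.
HSPA5: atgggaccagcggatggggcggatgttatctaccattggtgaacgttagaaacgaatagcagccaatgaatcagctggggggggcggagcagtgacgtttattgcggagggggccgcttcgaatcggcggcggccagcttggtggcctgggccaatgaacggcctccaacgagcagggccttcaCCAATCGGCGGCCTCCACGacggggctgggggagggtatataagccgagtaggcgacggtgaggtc
HYOU1: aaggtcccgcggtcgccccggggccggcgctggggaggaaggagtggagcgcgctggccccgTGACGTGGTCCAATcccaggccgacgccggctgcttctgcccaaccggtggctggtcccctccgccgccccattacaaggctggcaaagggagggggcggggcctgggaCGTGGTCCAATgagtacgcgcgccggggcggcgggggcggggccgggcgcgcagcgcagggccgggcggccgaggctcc
HERPUD1: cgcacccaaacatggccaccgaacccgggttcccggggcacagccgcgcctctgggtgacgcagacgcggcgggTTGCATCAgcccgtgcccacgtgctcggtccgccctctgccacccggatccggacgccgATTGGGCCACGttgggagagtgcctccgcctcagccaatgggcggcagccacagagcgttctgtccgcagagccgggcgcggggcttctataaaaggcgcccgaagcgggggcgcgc
UBE2J1: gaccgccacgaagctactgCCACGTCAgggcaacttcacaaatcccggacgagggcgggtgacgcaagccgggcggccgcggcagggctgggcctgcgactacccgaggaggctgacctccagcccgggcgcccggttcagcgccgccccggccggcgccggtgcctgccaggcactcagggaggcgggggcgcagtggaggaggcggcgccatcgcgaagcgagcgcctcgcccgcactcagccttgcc
UBXN4: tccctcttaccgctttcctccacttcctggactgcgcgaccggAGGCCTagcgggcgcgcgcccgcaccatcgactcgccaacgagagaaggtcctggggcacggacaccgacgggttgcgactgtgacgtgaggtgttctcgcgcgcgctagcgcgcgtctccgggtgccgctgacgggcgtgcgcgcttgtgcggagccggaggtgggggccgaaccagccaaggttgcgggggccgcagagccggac

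No gene in this group passed the test of the 3 knockdown arrays against the scrambled array. In limma, with Benjamini-Hochberg adjustment over all 13813 genes, 0 of 40 passed an adjusted p of 0.05, as did 0 of all genes (0%), and the smallest adjusted p was 0.9998 in either set. At an unadjusted p under 0.05 there were 446 genes in all (3.23%) and 1 of the 40, UBE2J1. With a lone scrambled array an exact permutation test cannot go below p = 0.25. The values below are therefore descriptions of these 4 arrays. Most of the 40 genes stayed near the scrambled level: 29 of 40 (72.5%) were less than 20% below and less than 25% above it with every hairpin, against 69.9% of all genes.

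By direction, 14 of 40 genes (35.0%) were lower than on the scrambled array with all 3 hairpins, against 30.6% of all genes, and 4 (10%) were higher with all 3, against 16.9%. The first share is near the background. The second is below it here but not without H2: over H3 and H4, 10 genes (25%) were higher, against 23.5% of all genes. Without H3, 6 were higher, against 23.5%, and without H4, 7 were higher, against 27.9%. Among the folding genes 8 of 18 were lower and 1 was higher with all 3 hairpins, and among the degradation genes 4 of 18 were lower and 3 were higher. None of the 40 was at least 20% lower with every hairpin, as 1.9% of all genes were, and none was at least 25% higher with every hairpin, as 0.369% were. These sides depend on how the arrays are scaled: 7 of the 14 lower genes (PDIA4, ERO1B, DNAJC3, HYOU1, EDEM1, UBE2J1 and UBXN4) and 3 of the 4 higher ones (HERPUD1, EDEM3 and ERLEC1) kept their side under the deposited scaling and 4 other scalings. That is 17.5% and 7.5% of the 40, where 18.6% and 16.5% of all genes did so.

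**Figure D1:**
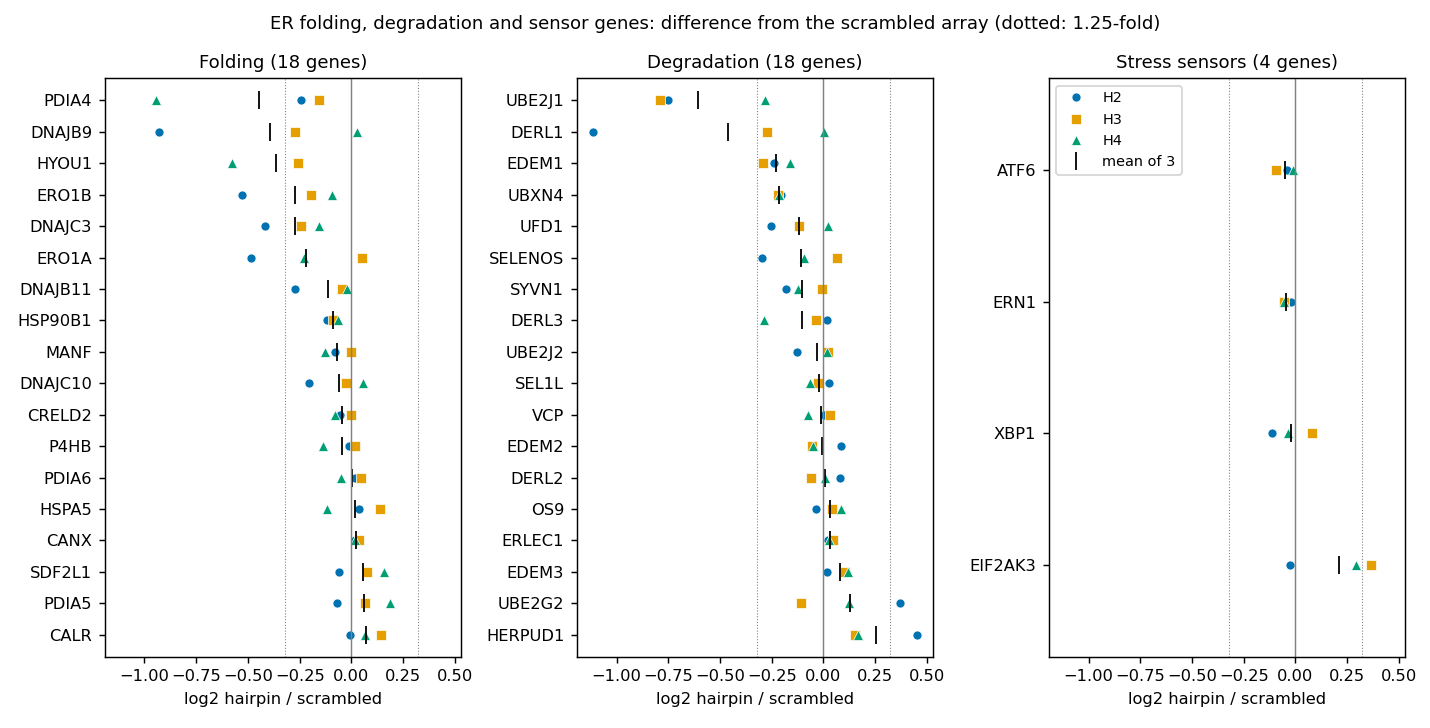
Log2 difference from the scrambled array (x axis) for the 40 genes with a value, by role, with 1 point per hairpin array and a black tick at the mean of the 3. Dotted lines mark 20% lower and 25% higher. Most points lie between the dotted lines, and the points furthest left belong to DERL1 and DNAJB9 with H2, PDIA4 with H4 and UBE2J1 with H2 and H3.

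Folding genes were, as a group, a little lower with H2 and H4 and level with H3. The median log2 difference over the 18 genes was -0.098 (H2), -0.002 (H3) and -0.073 (H4), beside -0.030, -0.021 and -0.046 for all genes. The median of their means was -0.064, and it stayed negative under each scaling tried, from -0.010 to -0.064. In no folding gene was H3 the lowest of the 3 hairpins, where H2 was the lowest in 10 and H4 in 8. Over all genes H2 was the lowest in 36.0%, H3 in 26.9% and H4 in 37.1%. When each array was centred on its named genes H3 was the lowest in 2 of the 18, against 39.9% of all genes under that scaling. The pattern was not particular to the folding genes. Among 15 translocon and signal peptidase genes, described below, H3 was also the lowest in 0, H2 in 10 and H4 in 5. In the other lists described below H3 was the lowest in 22.7% to 39.3% of genes.

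**Figure D2:**
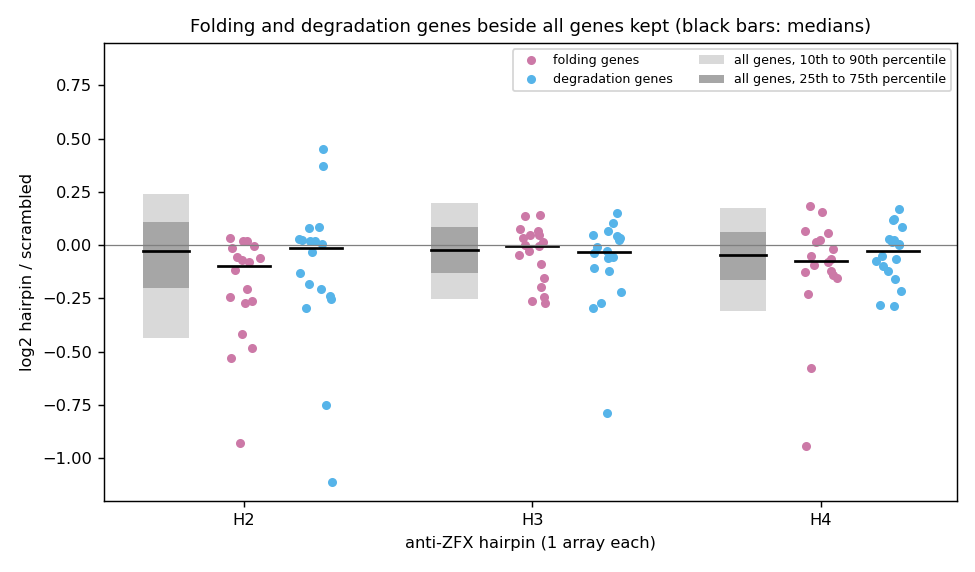
Log2 difference from the scrambled array (y axis) with each hairpin for the 18 folding genes and the 18 degradation genes, 1 point per gene, beside grey bars for all 13813 genes. Black bars are medians, and the folding median lies below that of all genes with H2 and H4 and above it with H3.

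The central chaperones barely differed. HSPA5 (BiP), the HSP70 of the ER lumen and the classic reporter of ER stress, read 9502, 10195 and 8531 with H2, H3 and H4 and 9273 on the scrambled array, so the scrambled value lies within the range of the knockdowns. Its mean log2 difference was 0.017 ± 0.13 (SD, n = 3). HSP90B1 (GRP94), the HSP90 of the ER, read 10395, 10592 and 10788 against 11282. It was lower with every hairpin, by a mean of -0.091 ± 0.027, but not under every scaling. CANX (calnexin), a membrane lectin that holds glycoproteins while they fold, was at 101.2%, 102.5% and 101.1% of the scrambled level, and its mean of 0.023 turned to -0.008 under quantile normalization. CALR (calreticulin), its soluble partner, was at 99.6%, 110.4% and 104.8%.

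HYOU1 (GRP170), which exchanges the nucleotide of HSPA5, stood apart from these chaperones. It read 1280 with H2, 1280 with H3 and 1028 with H4, against 1533 on the scrambled array. Every knockdown array was below the scrambled one, at 83.5%, 83.5% and 67.1%. The mean log2 difference was -0.37 ± 0.18 (SD, n = 3; limma SE 0.18, adjusted p = 0.9998), and without H4 it was -0.26.

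Among the enzymes that form and shuffle disulfide bonds, PDIA4 (ERp72) was the outlying gene. It read 3864, 4105 and 2379 with H2, H3 and H4 and 4574 on the scrambled array. All 3 were lower, at 84.5% and 89.8% for H2 and H3 but 52.0% for H4. The mean log2 difference of -0.45 ± 0.43 (SD, n = 3; limma SE 0.32) became -0.20 without H4. The relatives did not share the low H4 value: PDIA6 was at 101.3%, 103.3% and 96.5%, P4HB, which is also a subunit of collagen prolyl hydroxylase, at 99.2%, 101.2% and 90.8%, and PDIA5 at 95.4%, 104.7% and 113.6%. A dimmer probe set of P4HB gave log2 differences of 0.12, 0.059 and -0.029.

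The oxidases that recharge these isomerases were lowest with H2. ERO1A read 2485, 3597 and 2970 with H2, H3 and H4 and 3478 on the scrambled array, so H3 lay above and the others below it. Its mean log2 difference was -0.22 ± 0.27 (SD, n = 3), and -0.090 without H2. ERO1B read 90.4, 113.8 and 122.4 against 130.5, all lower, with a mean of -0.27 ± 0.23 that became -0.14 without H2. ERO1B was dim: its values lie close to the intensity filter. That filter applied to the mean over the arrays, and the H2 value of ERO1B lies below its level.

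J-domain proteins hand clients to HSPA5 and start its ATPase cycle, and all 4 of those measured were lowest with H2. H2 was the lowest hairpin in 36.0% of all genes. DNAJB9 (ERdj4), which helps clear misfolded proteins and holds IRE1 inactive, read 603.5, 950.8 and 1169 with H2, H3 and H4 against 1149. H2 was far below the scrambled array, at 52.5%, H3 was at 82.8%, and H4 was level at 101.8%. The mean log2 difference was -0.39 ± 0.49 (SD, n = 3), and -0.12 without H2. DNAJC3 (P58IPK), a cochaperone also known to restrain PERK, read 801.0, 901.8 and 959.4 against 1069. It was lower on every knockdown array, at 75%, 84.4% and 89.8%, with a mean of -0.27 ± 0.13 (limma SE 0.16). DNAJB11 (ERdj3) was at 82.9%, 96.8% and 98.7%, and DNAJC10 (ERdj5), which also reduces disulfides, at 86.7%, 98.2% and 103.9%.

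Small luminal proteins known to be induced by ER stress stayed close to the scrambled level. SDF2L1 was at 96.0%, 105.4% and 111.5% of the scrambled level, CRELD2 at 96.3%, 99.8% and 94.5%, and MANF, a secreted neurotrophic factor, at 94.7%, 99.9% and 91.7%.

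**Figure D3:**
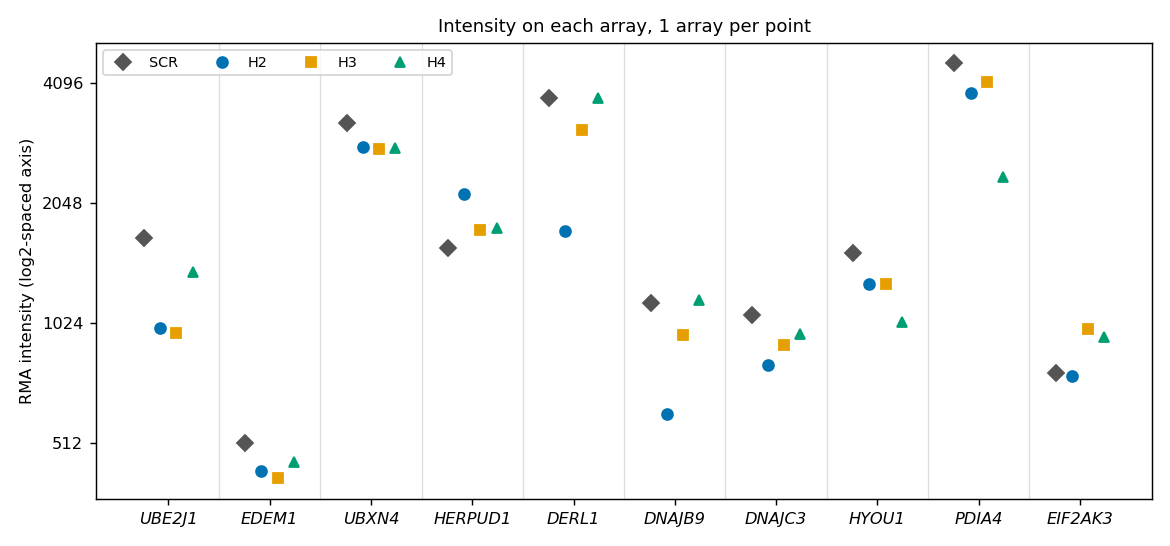
RMA intensity (y axis, log2-spaced) of 10 genes on the scrambled (SCR), H2, H3 and H4 arrays, 1 array per point. UBE2J1 is low with H2 and H3, DERL1 and DNAJB9 with H2, and PDIA4 and HYOU1 with H4, while HERPUD1 is above the scrambled value on every knockdown array.

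In the sensor group, EIF2AK3 (PERK), the kinase that slows translation by phosphorylating eIF2-alpha, had the largest differences. It read 753.7, 987.4 and 940.5 with H2, H3 and H4 against 766.7, so H2 was level and the other pair was higher, at 128.8% and 122.7%. The mean log2 difference was 0.21 ± 0.21 (SD, n = 3), with 0.33 without H2 and 0.14 without H3. XBP1 read 2667, 3055 and 2812 against 2888, on both sides of the scrambled value. ATF6 read 6178, 5968 and 6303 against 6362, and ERN1 (IRE1) read 311.8, 304.9 and 304.8 against 316.7. These were lower with every hairpin, down to 93.8% for ATF6 and 96.2% for ERN1, and their means changed sign when each array was centred on its named genes. A probe set summary does not separate the spliced XBP1 message, cut by IRE1, from the unspliced one, and ATF6 and PERK are activated as proteins, so sensor activity was not measured.

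The degradation genes had medians close to those of all genes, at -0.016 (H2), -0.033 (H3) and -0.026 (H4). The median of their means, -0.026, turned positive when the arrays were centred on their medians or their named genes. It was -0.046 without H3 and -0.005 without H4. Single genes nevertheless lay far from the scrambled array.

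UBE2J1, the membrane-anchored ubiquitin-conjugating enzyme of this route, had the largest mean difference of the 40 genes. It read 990.5, 962.9 and 1368 with H2, H3 and H4 and 1664 on the scrambled array. All 3 were lower, at 59.5% and 57.9% with H2 and H3 and at 82.2% with H4. The mean log2 difference was -0.61 ± 0.28 (SD, n = 3; limma SE 0.24, unadjusted p = 0.0495, adjusted p = 0.9998), and between -0.52 and -0.77 without 1 hairpin. The other E2 enzymes did not share it. UBE2J2 was at 91.5%, 101.6% and 101.0%, and UBE2G2, a soluble E2, read 2753, 1980 and 2322 against 2131, higher with H2 and H4 and lower with H3.

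In the ligase complex, HERPUD1 and DERL1 lay furthest from the scrambled array, on opposite sides of it with H2. HERPUD1, a short-lived scaffold of the complex and a strongly stress-induced gene, read 2155, 1751 and 1773 with H2, H3 and H4 against 1578. All 3 knockdown arrays were higher, at 136.6%, 111.0% and 112.4%, with a mean log2 difference of 0.26 ± 0.17 (SD, n = 3; limma SE 0.17) and 0.16 without H2. DERL1, a rhomboid-like membrane protein of the exit channel, read 1733, 3107 and 3752 against 3749. H2 was at 46.2%, the lowest value of any of the 40 genes, H3 at 82.9% and H4 at 100.1%, so the mean of -0.46 ± 0.58 became -0.14 without H2.

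The rest of the complex was near the scrambled level. DERL2 was at 105.7%, 95.9% and 100.5%, and DERL3, a further derlin, at 101.3%, 97.4% and 82.0%. SYVN1 (HRD1), the ubiquitin ligase itself, was at 88.1%, 99.4% and 91.8%, and SEL1L, its adaptor, at 102.0%, 98.1% and 95.5%.

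Mannose trimming marks a glycoprotein for disposal, and of the genes of this step EDEM1 was lower throughout. EDEM1 read 433.4, 416.8 and 457.3 with H2, H3 and H4 against 510.8, at 84.9%, 81.6% and 89.5%. Its mean log2 difference was -0.23 ± 0.067 (SD, n = 3; limma SE 0.14). Its relatives did not follow: EDEM2 was at 106.1%, 96.1% and 96.4%, and EDEM3 at 101.2%, 107.5% and 108.6%, higher with every hairpin. The lectins that read the trimmed sugars were level, with OS9 at 97.6%, 102.9% and 106.0% and ERLEC1 at 101.6%, 103.2% and 101.9%.

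At the extraction step UBXN4 (erasin), which anchors VCP to the ER membrane, hardly varied among the hairpins. It read 2815, 2784 and 2799 with H2, H3 and H4 against 3247 on the scrambled array, at 86.7%, 85.8% and 86.2%. The mean log2 difference was -0.21 ± 0.008 (SD, n = 3; limma SE 0.11), the smallest SD of the 40 genes. That SD holds none of the error of the scrambled array, against which all 3 values are set. VCP was at 100.3%, 102.4% and 95.1%, its cofactor UFD1 at 83.9%, 92.1% and 101.6%, and SELENOS, a selenoprotein that ties VCP to the derlins, at 81.4%, 104.8% and 93.6%.

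Taken hairpin by hairpin, different genes lay furthest away. With H2, 6 of 40 genes (15.0%) were at least 20% lower, against 15.4% of all genes: ERO1A, ERO1B, DNAJB9, DNAJC3, DERL1 and UBE2J1. HERPUD1 and UBE2G2 (5.0%) were at least 25% higher, against 5.42%. By the same marks, with H3 UBE2J1 was lower (2.5%, against 5.91%) and EIF2AK3 was higher (2.5%, against 3.58%). With H4, PDIA4 and HYOU1 were lower (5.0%, against 9.25%) and 0 were higher, against 2.97%. The shares with H2 are at the background. At 1.5-fold in place of these marks the lower shares turned to the other side of the background: 3 genes (7.5%) with H2, against 5.61% of all genes, 1 (2.5%) with H3, against 1.14%, and 1 (2.5%) with H4, against 2.17%. These rest on 1 to 3 genes. Whether the hairpins differ could not be tested with 1 array each.

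Genes with an ERSE or ERSE-II in the promoter window did not lie on 1 side. Over these 11 genes the median of the mean log2 differences was 0.004, from -0.37 for HYOU1 to 0.26 for HERPUD1, with 4 lower and 2 higher with all 3 hairpins. Over the 26 other genes with a window it was -0.047, with 10 lower and 2 higher. All genes had a median of -0.035, with 30.6% lower and 16.9% higher. Whether these sets differ was not tested. HYOU1 and HERPUD1, whose promoters shown above both hold ERSE-II, were on opposite sides of the scrambled array with every hairpin. Of the 8 genes with the ZFX core, DNAJC3, ERO1B and UBXN4 kept the lower side under every scaling tried, as 18.6% of all genes did, and none kept the higher side, as 16.5% did. Counts over 8 genes were not tested.

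Other genes of the pathway were described by lists that each cover a step of it, and in limma 0 members of any of the 7 lists passed. The counts on 1 side that follow stand beside 30.6% lower and 16.9% higher over all genes, or 23.3% and 23.6% with each array centred on its median. In the translocon and signal peptidase list, which brings proteins into the ER, 1 of 15 genes was lower and 4 were higher with all 3 hairpins. The lower one, SEC61A2, a minor form of the channel subunit, read 446.3, 566.6 and 566.4 with H2, H3 and H4 against 855.3, a mean log2 difference of -0.71 ± 0.20 (SD, n = 3). SSR2, a translocon-associated protein, was at 106.4% on average, though not higher with every hairpin under every scaling. Of 17 genes of N-glycosylation and glucose trimming, 6 were lower and 3 were higher, which became 3 and 5 with each array centred on its median. MAN1A1, a mannosidase, was at 85.5% on average. GANAB, the catalytic subunit of glucosidase II, was at 89.6%, and its mean log2 difference of -0.16 became -0.079 without H2. The medians of these lists, -0.007 and -0.014, changed sign with the scaling.

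Of 19 further oxidoreductases and cochaperones, 10 were lower and 4 were higher with all 3 hairpins (median -0.078). ERP29, a luminal chaperone of the disulfide isomerase family without an active thiol pair, read 859.3, 1501 and 1470 with H2, H3 and H4 against 1656, low with H2 as ERO1A and DNAJB9 were, and its mean of -0.42 became -0.16 without H2. QSOX1, a sulfhydryl oxidase, was lowest with H4, at 668.8 against 1080, and its mean of -0.39 became -0.24 without H4. Of 28 further degradation factors, 8 were lower and 5 were higher, which became 4 and 7 with each array centred on its median (median -0.013, which also changed sign with the scaling). YOD1, a deubiquitinase that works with VCP, was at 74.2% on average (-0.43 ± 0.16) and RNF103, a ubiquitin ligase of the ER membrane, at 79.4% (-0.33 ± 0.12), both lower with every hairpin.

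Partners of the sensors and genes of the ATF branches had 9 of 22 lower and 1 higher with all 3 hairpins, with medians of -0.17, -0.068 and -0.24 with H2, H3 and H4. CREB3L1 (OASIS), a transcription factor held in the ER membrane until it is cut, read 270.3, 406.1 and 517.9 against 668.7, a mean of -0.80 ± 0.47 that became -0.54 without H2. DDIT4, an inhibitor of mTORC1 signalling, was at 66.2%. Of 7 receptors that send ER to autophagy, 3 were lower and 0 higher (median -0.11). RETREG1 (FAM134B) read 154.3, 175.1 and 182.4 against 235.4, and RETREG2 was at 83.4%, though not lower with every hairpin under every scaling. Its mean of -0.26 became -0.095 without H2.

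Chaperones of the cytosol and mitochondria were highest with H2 and lowest with H4. Their median over 21 genes was 0.14 (H2), 0.072 (H3) and -0.039 (H4), with 2 lower and 3 higher with all 3 hairpins, or 1 lower and 9 higher with each array centred on its median. DNAJB6, a cytosolic J-domain protein, read 6388, 6175 and 5442 against 4888, and CCT5, a subunit of the cytosolic chaperonin, 8706, 7595 and 7621 against 6818. H4 was the lowest hairpin in 14 of these 21 genes, H3 in 6 and H2 in 1. Over all genes the shares were 37.1%, 26.9% and 36.0%. Among the 18 ER folding genes H4 was the lowest in 8, H3 in 0 and H2 in 10. Whether the lists differ was not tested.

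**Figure D4:**
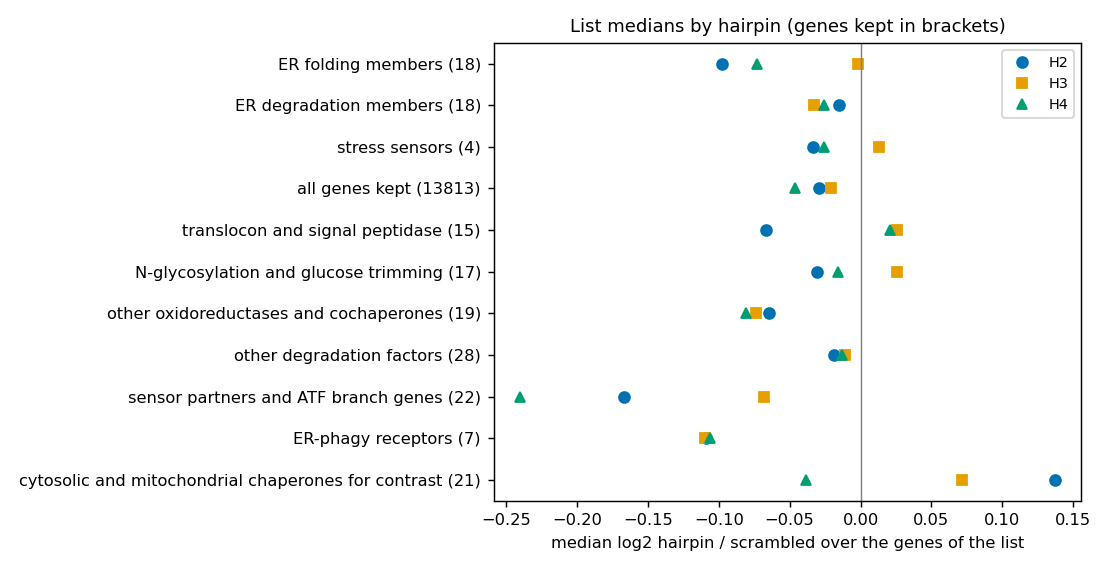
Median log2 difference from the scrambled array (x axis) over the genes of each list (number kept in brackets), with 1 point per hairpin. With H2 the cytosolic and mitochondrial chaperones lie at 0.14 and the ER folding genes at -0.098.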

How the data were processed

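The deposited table holds 1 linear intensity per probe set and array, made by the authors with RMA, per the submitters' processing notes. The RMA version and settings were not given in the sources used here. Since RMA commonly ends on a log scale and these values do not, they were log2-transformed. RMA forces the probe signals of the arrays onto 1 distribution, so a shift of all messages together would not be seen. Small offsets remained in the probe set values. Their median intensity was 228.1 (H2), 227.5 (H3) and 226.0 (H4), and 232.3 on the scrambled array.

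Probe sets with exactly 1 symbol (19460 of 33297; 19429 matched RefSeq by gene number) stand for 18417 genes, the brightest probe set being kept. Genes under the 25th percentile of mean log2 intensity, 6.78, were left out. The knockdown arrays were compared with the scrambled array in limma 3.58.1 (R 4.3.3; lmFit, eBayes with trend, 2 residual degrees of freedom), with Benjamini-Hochberg adjustment over 13813 genes at 0.05. The lone scrambled array was assumed to vary like the others. The fit was also run on simulated arrays, in which the scrambled array was given the spread of the hairpins. That run therefore does not test this assumption.

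The members, lists and tests were chosen with earlier results of these data known. Named in full were up to 8 genes lower and 6 higher with every hairpin, by the smallest of the 3 differences, the 6 with the largest range, the 4 sensors, and from each further list the 2 with the largest mean difference on 1 side. HSPA5 was added after its values were seen, and other genes of the group are given briefly. Motifs were searched in RefSeq promoters (GRCh38.p14). A planned look at protein tails was not run. Alternatives were 4 other scalings, 2 other filters, the mean of all probe sets, no trend, each hairpin left out, a 1.5-fold mark and a shorter motif. The number of arrays limits the precision.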

Additional observations from a re-analysis of the deposited data

How the results depend on the processing

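In limma 0 genes passed under each alternative run, including each hairpin left out and the fit without the intensity trend. The count of genes lower with all 3 hairpins, 14, became 8 with each array centred on its median and 7 with each array centred on its named genes, a scaling chosen after seeing the data. The higher count, 4, became 10 under the latter. Over all genes these scalings turned the shares lower and higher from 30.6% and 16.9% to 23.3% and 23.6%, and to 19.4% and 26.9%. With 1 hairpin left out, 17 to 18 genes were lower and 6 to 10 higher, since fewer arrays had to lie on 1 side, and all genes stood at 39.4% to 40.6% lower and 23.5% to 27.9% higher. The higher count was 10 without H2 (23.5% of all genes), 6 without H3 (23.5%) and 7 without H4 (27.9%). The folding median of -0.064 moved to -0.0096 with centring on named genes, and was -0.0833 to -0.0514 without 1 hairpin. The degradation median of -0.026 turned to 0.0061 and 0.028 with the 2 centrings, moved to -0.0104 with quantile normalization and to -0.0119 with cyclic loess, and ranged from -0.0457 (without H3) to -0.0047 (without H4). The sensor median of -0.034 was -0.002 with centring on the median, 0.0199 with centring on named genes, -0.0076 with quantile normalization, and -0.0334 to -0.0157 without 1 hairpin. Of the 20 genes named in full by the rule above, 16 kept the sign of their mean under every alternative. HSPA5, added to them, did not keep its sign under every scaling, and its mean became -0.0426 without H3. CANX turned to -0.0077 with quantile normalization. XBP1 turned to 0.0082 and 0.0301 with the centrings, and ranged from -0.0765 to 0.0214 without 1 hairpin. ATF6 and ERN1 turned to 0.0047 and 0.0097 with centring on named genes. For these changes the cause was not tested. At 1.5-fold, 3, 1 and 1 genes were lower with H2, H3 and H4, against 5.61%, 1.14% and 2.17% of all genes, and 0 were higher, against 0.992%, 0.528% and 0.608%. CCACG alone was found in 78.4% of the promoters and in 42.1% of all genes. No paired analysis was possible because the labels give the hairpins and the scrambled sample no shared replicate numbers. Dim genes, such as ERO1B, could be judged by an intensity filter alone.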
